A study of Petunia x hybrida with 6 samples.

Results

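As a petunia flower opens, its corolla, the fused petals, stops expanding and turns to making scent, much of it volatile compounds built from phenylalanine. A sequencing library divides a limited number of reads over all the transcripts of a tissue, so that when some abundant transcripts increase, they take a larger share of the counts and the share of the rest shrinks. The components described here were abundant in open corollas and moderately higher there than in buds, and were examined for the share of each library they took and for what they added to the concentration of counts on a few components.

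RNA came from corollas of wild-type *Petunia hybrida* cv. Mitchell diploid, in 3 Bud libraries (the day before opening) and 3 Day2 libraries (day 2 postanthesis), with at least 8 flowers pooled per biological replicate. All plants were untransformed, and both stages were sampled at the same hour of the evening. Whether the stages also differed in harvest date, RNA preparation or sequencing run was not examined here. The reads were assembled *de novo*, and a Trinity component (the part of a contig name before _c) gathers contigs whose sequences overlap, often a gene with its variants or a group of related genes. The components carry numbers and no gene names, so their functions, and the labelled tissue by its marker genes, were not examined here, and a whole corolla mixes several cell types in which a change of cells and a change of RNA per cell cannot be told apart.

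Of 80785 components, 111 were members. They were selected on the values themselves: the counts of all contigs of a component were summed, divided by the library's median-of-ratios size factor and expressed as counts per 1000000 counts of the mean library total (CPM), and a member had a Day2 mean of 500 CPM or more that was 2 to under 8 times its Bud mean. The difference between stages is therefore the rule and no finding, and it is given without a test. Another 31 components of 500 CPM or more on Day2 were at least 8 times higher than in Bud. A further 221 components reached 500 CPM in a stage with means within 2-fold, 43 were 2 to under 8 times lower on Day2, 22 were at least 8 times lower, and 80357 stayed under 500 CPM in both stages.

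Total counts ranged from 87419488 to 111398763 per library, and size factors from 1.03 to 1.27 in Bud and from 0.842 to 1.001 on Day2. The deposited counts add reads to several contigs of a component, as comp16616 shows. In Bud replicate 1, contig comp16616_c0_seq2 exceeded comp16616_c0_seq4 by 8612 counts, and comp16616_c0_seq3 exceeded comp16616_c0_seq5 by the same 8612. In Day2 replicate 1 these differences were 63120 and 63084. They were less alike in Day2 replicate 2, at 63131 and 61589, and in Day2 replicate 3, at 53402 and 52100. Sums over a component may therefore count some reads repeatedly, and several of the values below are also given from the most counted contig of each subcomponent (the contigs that share a name up to _seq).

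**Figure D1:**
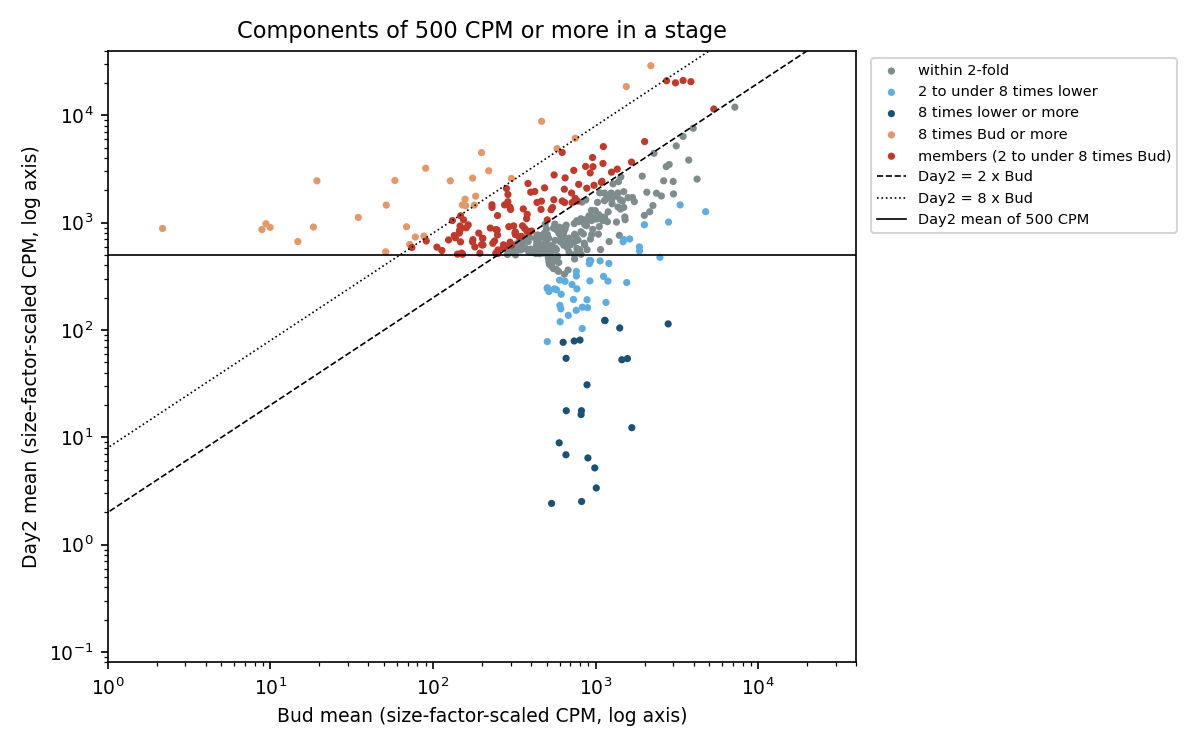
Mean level on Day2 against mean level in Bud (size-factor-scaled CPM, both axes logarithmic) for the 428 components that reached 500 CPM in a stage, with points coloured by class and lines at the limits of the rule. The 111 members (red) lie between the 2-fold and 8-fold lines above 500 CPM, with 4 of them standing together at the top, between 20094 and 21133 CPM on Day2.

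The members took 7.44%, 7.49% and 8.09% of the counts of the 3 Bud libraries and 21.8%, 21.1% and 21.4% of those of the 3 Day2 libraries. The Bud mean was 7.67% ± 0.362 and the Day2 mean 21.4% ± 0.365 (SD, n = 3 libraries each). Libraries of a stage thus differed by under 1 percentage point, whereas the stages, which the rule set apart, lay 13.8 points from each other. Counted on the most counted contig of each subcomponent alone, the same 111 components took 5.82% to 6.45% in Bud and 17.5% to 18.6% on Day2.

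Across all components, those whose mean share was larger on Day2 gained 32.0 points in all, and the 111 members held 42.97% of that gain, or 33.7% with the same components counted on the most counted contig of each subcomponent alone. The 31 components with a rise of 8-fold or more gained 8.61 points, or 26.9% of it. A total of 27041 components under 500 CPM shared 8.004 points. What was given up came from several classes: the 80357 components under 500 CPM moved from 58.7% to 46.9% of the counts, the 221 within 2-fold from 24.0% to 20.6%, the 43 that were moderately lower from 5.95% to 1.45%, and the 22 that were at least 8 times lower from 2.70% to 0.0867%. Shares of a library sum to the whole, so a smaller share need not be a lower level. In size-factor-scaled CPM, the components within 2-fold had a median ratio of Day2 to Bud of 1.19.

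On the scale set by the size factors, which is anchored on the middle component and not on the total, the sum of all counts was 83.3 ± 1.66 in Bud and 113.8 ± 2.34 on Day2, in units of 1000000 counts (SD, n = 3). The members' sum was 6.39 ± 0.375 and 24.4 ± 0.906 in the same units, a ratio of 3.81, and the members made up 59.1% of the difference between the stages in the scaled total. That difference is net of components that were lower on Day2, whereas the members' part of the share gained, given above, counts gains alone. The level of total RNA per corolla was not measured, so this sum describes the scaling and not an amount of RNA.

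**Figure D2:**
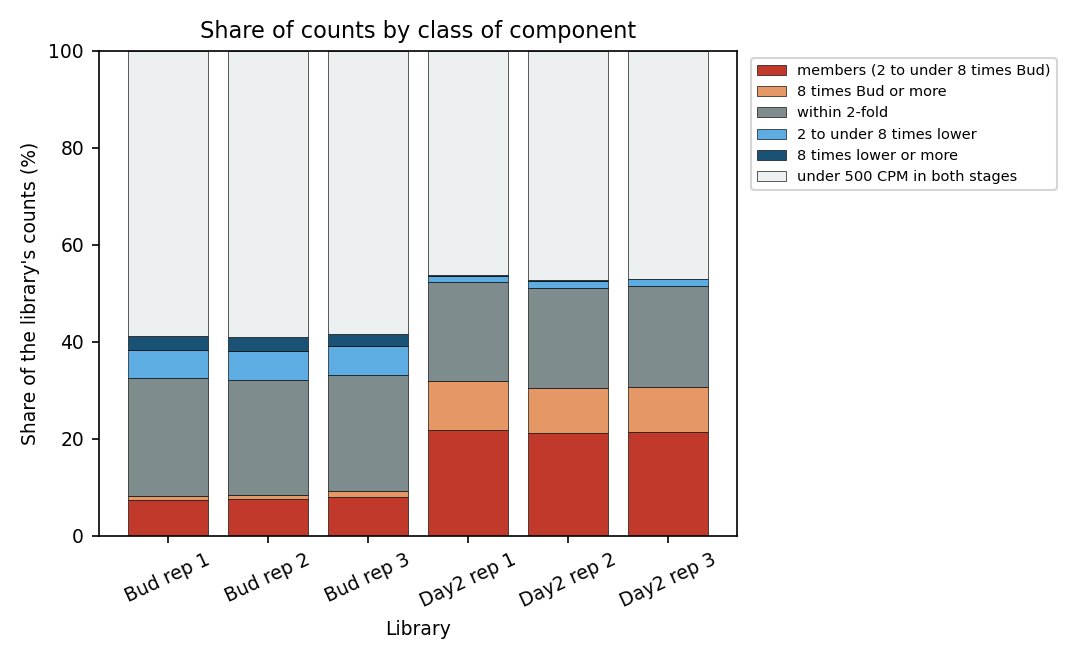
Share of each library's counts (%, stacked to the whole) taken by 6 classes of component, for 3 Bud and 3 Day2 libraries. The members (red) took 7.44% to 8.09% in Bud and 21.1% to 21.8% on Day2, and bars of the same stage are nearly alike.

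The gain was not spread evenly over the members. The 4 with the highest Day2 means, comp20096, comp16616, comp20064 and comp19360, together took 1.51%, 1.53% and 1.65% of the counts in the Bud libraries and 7.44%, 6.98% and 7.22% in the Day2 libraries. They accounted for 41.1% of the members' gain, and the other 107 members, which rose from 6.11% ± 0.285 to 14.2% ± 0.144 of the counts (SD, n = 3), for 58.9%. It took 12 members to reach 50% of the members' Day2 share. By size of difference, 46 members at 2 to under 3 times Bud took 3.69% of the counts in Bud and 6.38% on Day2. The 15 members at 6 to under 8 times Bud took 1.43% in Bud and 7.08% on Day2, so this smaller group added 5.64 points against 2.69 points for the larger.

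Component comp20096 had the highest Day2 mean of the members, with 3376, 3188 and 3778 CPM in Bud and 21123, 20734 and 21541 CPM on Day2. The CV of its Day2 libraries was 1.91%. Of its 5 contigs, 4 each held 23.2% to 26.0% of its counts in Bud and were 6.16 to 6.28 times higher on Day2. The fifth, comp20096_c0_seq4 of 2980 bp, went the other way, with 57.6, 66.1 and 57.8 CPM in Bud and 46.1, 43.5 and 48.6 CPM on Day2.

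Component comp16616 had 2425, 2828 and 2934 CPM in Bud and 22098, 19584 and 21362 CPM on Day2. Its ratio of 7.70 was the closest of the 4 to the upper limit of the rule. Without Day2 replicate 2, its lowest Day2 library, the ratio was 8.08 and comp16616 was no longer a member. Component comp20064 had 3478, 4477 and 3594 CPM in Bud and 23370, 19890 and 18518 CPM on Day2, which were the most dispersed Day2 values of the 4 (CV 12.1%). Component comp19360, which spreads over 68 contigs, had 3098, 2520 and 3665 CPM in Bud and 20342, 18115 and 21825 CPM on Day2.

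The next members were well below these in counts. Component comp18041 was the most counted member in Bud, with 5055, 4864 and 6071 CPM, and had 12168, 10763 and 11467 CPM on Day2. Its ratio of 2.15 fell to 1.57 when libraries were scaled by their totals alone, and it is then no member. Component comp17898 had 1893, 2072 and 2037 CPM in Bud and 5686, 6099 and 5311 CPM on Day2. Its 2 contigs, of 3098 and 4011 bp, had nearly the same counts, and the longer held 50.1% of them in Bud and 50.3% on Day2.

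Component comp20337, of 77 contigs, had 1087, 1099 and 1157 CPM in Bud and 4883, 5615 and 4852 CPM on Day2. Component comp17064 had 599, 631 and 636 CPM in Bud and 5230, 4422 and 3890.5 CPM on Day2, the second largest ratio of the 10 most counted members at 7.26. Component comp18345 had 893, 1110 and 866 CPM in Bud and 4518, 3786 and 3841 CPM on Day2. Component comp19636 had 1686, 1692 and 1607 CPM in Bud and 3782, 3335 and 3891 CPM on Day2, and was also under 2-fold, at 1.62, with libraries scaled by their totals.

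**Figure D3:**
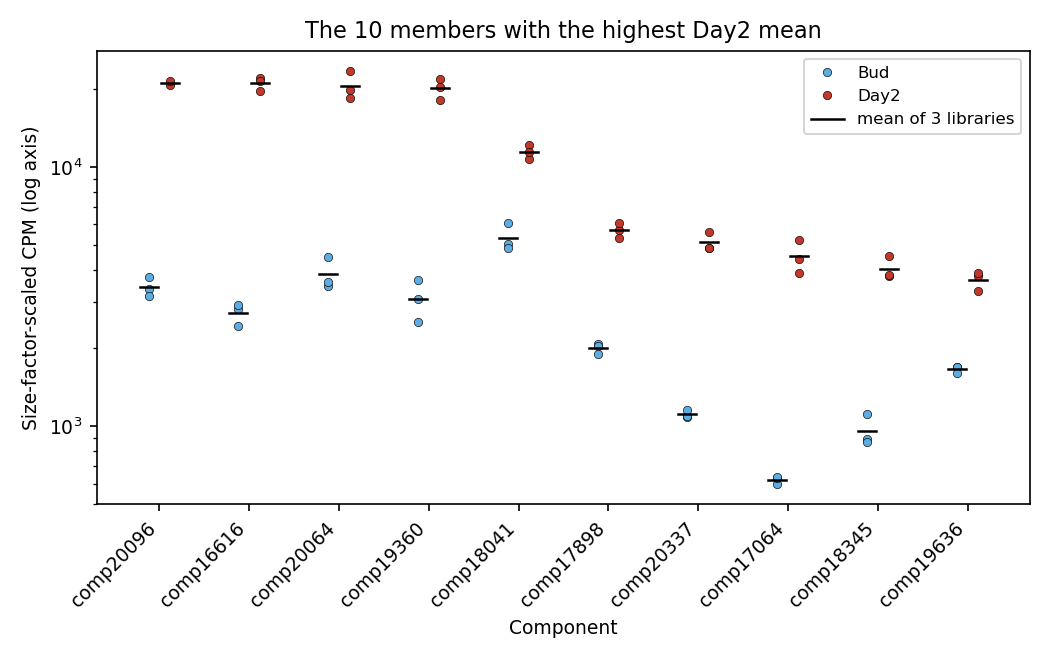
Size-factor-scaled CPM (logarithmic axis) of the 10 members with the highest Day2 means in each of 3 Bud (blue) and 3 Day2 (red) libraries, with bars at the mean of 3 libraries. The components are ordered by their Day2 mean, and comp20096 to comp19360 form a group with Day2 means of 20094 to 21133 CPM.

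Members ranked 11 to 20 by their Day2 mean were comp19240, comp15061, comp20367, comp19654, comp20088, comp20259, comp19924, comp17411, comp18465 and comp19525. Their Day2 means ran from 3566 CPM for comp19240 to 2427 CPM for comp19525. Their ratios ran from 2.22 for comp19525 to 5.02 for comp17411. With libraries scaled by their totals, comp19525 (1.63), comp19654 (1.70) and comp20259 (1.73) were under 2-fold and no longer members. With the most counted contig of each subcomponent alone, comp17411 was 11.96 times higher on Day2 and left the rule at its upper end. Its leading contig comp17411_c0_seq15 held 9.90% ± 1.72 of its counts in Bud and 23.4% ± 1.12 on Day2 (SD, n = 3). Of the first 20 members, comp18345 and comp19525 left the rule under the same counting because they fell below 500 CPM, with 441 and 419 CPM on Day2 per total of the contigs so kept.

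Over all 111 members, Day2 means ran from 509 to 21133 CPM with a median of 1062, and Bud means from 74.1 to 5330 CPM with a median of 320. Day2 means reached 1000 CPM in 57 members and 11466 CPM in 5. In Bud, 35 members already had 500 CPM or more, and 2 had under 100 CPM. The median ratio was 3.34. All 111 members had every Day2 library above every Bud library, as did 33.0% of the 24677 components tested and 122 of the 221 components within 2-fold. In 88 members, and in 11.3% of the components tested, the lowest Day2 library was at least 2 times the highest Bud library. In the edgeR fit over all components, 111 of 111 were called higher on Day2 (quasi-likelihood test, Benjamini-Hochberg adjusted p below 0.05), against 29.0% of the 24677 components tested. Nothing is read from these counts, since the rule used the same contrast. The scaling shifts all values: the median log2 fold change of the components tested was −0.05 with TMM factors and −0.49 with library totals, and that of the members 1.73 and 1.29. Of the components called, 49.0% were higher on Day2 with TMM factors and 28.45% with library totals.

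The limits of the rule cut through a continuum. At the minimum level, comp16172 (508.6 CPM on Day2) and comp18629 (509.6 CPM) were just inside and comp14409 (498 CPM) and comp19398 (497 CPM) just outside. At the lower ratio, comp14540 (2.03) and comp20165 (2.06) were inside and comp17482 (1.98) and comp10837 (1.95) outside. At the upper ratio, comp18553 (7.96) and comp17851 (7.93) were inside, and comp20163 (8.12) and comp16720 (8.17) outside. The components that carry the numbers of the study's candidate transporter genes, a link made by number only, were not members because they lay under 500 CPM. On Day2, comp21511 had 20.7 ± 5.15 CPM, comp18042 had 290.0 ± 32.5 CPM and comp19221 had 13.9 ± 0.823 CPM (SD, n = 3). Component comp19221 was also outside the fold limits, at 0.469 times Bud, against 2.47 for comp21511 and 2.34 for comp18042.

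Counts per component also grow with the length of the transcript. Per kilobase of the most counted contig, comp16616 led the members and also all components on Day2: comp16616_c0_seq2, of 2166 bp, had 409 ± 39.4 CPM per kilobase in Bud and 3158 ± 180.0 on Day2 (SD, n = 3). Next were comp19654_c1_seq9, of 626 bp, with 884 ± 105 in Bud and 1905 ± 363 on Day2, and comp20064_c0_seq6, of 2740 bp, with 316 ± 45.05 in Bud and 1690.5 ± 224 on Day2. The difference between these last contigs on Day2 was smaller than their SDs. Component comp20096, first by counts, was seventh among the members per kilobase, at 815 on Day2 for its contig of 6897 bp. By this measure 6 of the 10 highest components on Day2 were members, and 31 of the 100 highest. Only the most counted contig enters it, so the order also depends on how a component's counts divide over its contigs. On Day2 that contig held 98.4% of the counts of comp15061 and 13.2% of those of comp19360.

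On Day2 the counts were concentrated on fewer components. The 100 most counted components of each library held 22.3%, 22.0% and 22.5% of the counts in Bud and 35.0%, 33.9% and 34.1% on Day2, a difference between means of 12.1 points. Members were 13, 14 and 14 of these 100 in the Bud libraries and 44, 42 and 44 in the Day2 libraries. Within the 10 most counted there were 3, 3 and 4 members in Bud and 5 in each Day2 library, where these 5 held 7.93% to 8.48% of all counts. The 5 were the first 5 members in the order above. The number of components needed to hold 50% of the counts was 587, 591 and 581 in Bud and 305, 330 and 320 on Day2.

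With the members left out of both stages, the 100 most counted of the remaining components held 21.9% ± 0.162 in Bud and 28.0% ± 0.530 on Day2 (SD, n = 3), a rise of 6.04 points in place of 12.1. The number of components that held 50% of the counts was then 608, 612 and 608 in Bud and 487, 513 and 504 on Day2. Leaving out the 31 components with a rise of 8-fold or more in their place gave a rise of 8.47 points. Without both groups the share of the 100 most counted was 21.9% ± 0.138 in Bud and 21.2% ± 0.235 on Day2, a difference of −0.74 points, and 610 components in Bud and 658 on Day2 held 50% of the counts. These classes were defined by their higher Day2 level, so that taking them away had to lower the Day2 concentration, and the values give only the size.

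The same was computed by holding the members at their Bud level. With each member's Day2 count set to its Bud mean on the size-factor scale, and all other counts kept, the 100 most counted components held 28.3%, 27.4% and 27.7% of the Day2 libraries, a rise of 5.53 points over Bud. With the 31 strongly higher components treated in this way the rise was 8.36 points, and with both it was −0.48 points. By either computation the 111 members together took away more of the rise than the 31 components did. No allowance was made for the larger number of members. Counted on the most counted contig of each subcomponent, the rise was 9.72 points with all components and 3.10 points without the same 111 members.

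**Figure D4:**
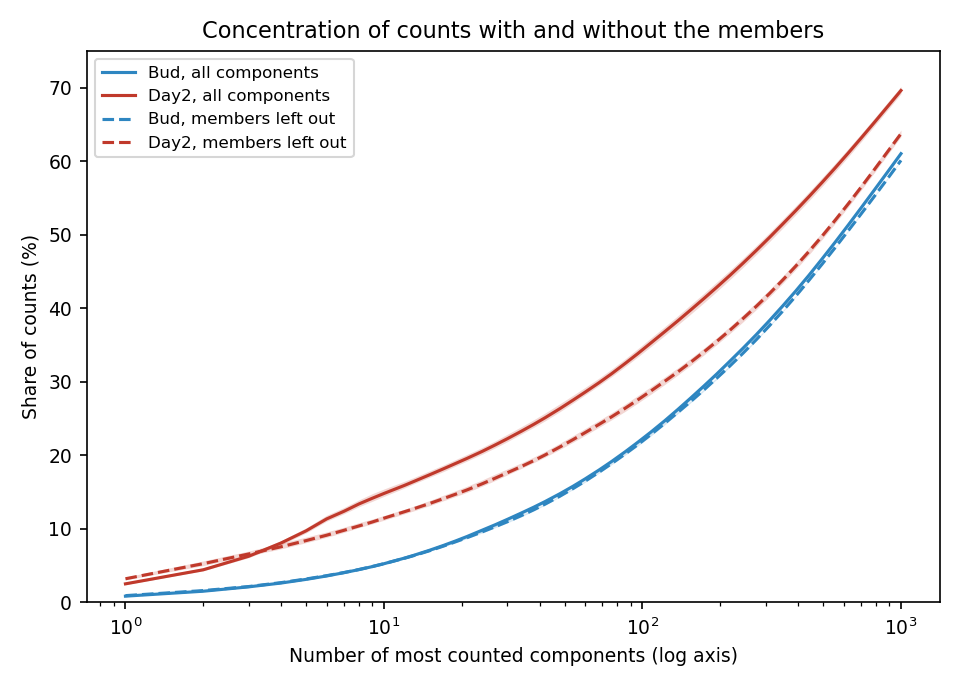
Share of counts (%) held by the most counted components of a library against their number (logarithmic axis), for Bud (blue) and Day2 (red), with all components (solid) or with the members left out (dashed). Lines are means of 3 libraries and the narrow bands span their lowest and highest values. At 100 components the Day2 line is at 34.3% and its dashed counterpart at 28.0%, while both Bud lines are at about 22%.

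The median CV of the members over 3 libraries was 7.52% in Bud and 8.73% on Day2, and the values for the 221 components within 2-fold were 5.14% and 5.90%. In Bud, 65 members were highest in replicate 3 and 64 lowest in replicate 1, and the members' share was also largest in replicate 3. On Day2, 49 members were highest in replicate 1 and 61 lowest in replicate 2.

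Component comp13542 was the most variable member in both stages. It had 76.6, 125 and 234 CPM in Bud (CV 55.6%) and 537, 727 and 1142 CPM on Day2 (CV 38.6%), and the groups still did not overlap. On Day2 the next were comp18775, with 1179, 582 and 913 CPM after a narrow 219 to 230.1 CPM in Bud, and comp20118, with 1587, 1061 and 849 CPM. In Bud the next were comp14935, with 442, 431 and 722 CPM, and comp17212, with 118, 129 and 195 CPM. Both of these, like comp13542, were highest in replicate 3 of each stage, at 1698 and 1007 CPM on Day2.

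The members comprised 2817 of the 156614 contigs. A member had 1 to 100 contigs, with a median of 13. The median was 36 for the components within 2-fold and 12 for those 2 to under 8 times lower on Day2. It was 4 for those at least 8 times higher and 6.5 for those at least 8 times lower. Only 2 members had a single contig: comp10066, of 3817 bp, with a mean of 230.2 CPM in Bud and 1469.7 CPM on Day2, and comp3148, of 1736 bp, with 248 and 854 CPM. In 98 of the 111 a single subcomponent held over 90% of the counts. The clearest exception was comp19636, whose leading subcomponent held 47.0% of the counts over 6 subcomponents. The members with the most contigs were comp20118 with 100, and comp19507 and comp20099 with 93 each. In comp19507 all 3 Day2 libraries (1786, 1653 and 1477 CPM) lay above the 520 to 589 CPM of Bud, and in comp20099 the values were 651, 573 and 522 CPM against 258 to 281 CPM.

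A sum hides what its contigs do. Of 1487 member contigs with 10 CPM or more in a stage, 1056 were 2 to under 8 times higher on Day2 like the members themselves, and 166 contigs in 23 members were 8 times higher or more. Another 60 contigs in 16 members were at least 2 times lower on Day2. These 60 held 2.70% of the members' counts in Bud and 0.169% on Day2. Of the 1487, 61 had a partner in their subcomponent with counts within 1% in all 6 libraries. This limit is narrow: the 2 contigs of comp17898, at 219956 and 223046 counts in Day2 replicate 3, did not meet it. The count of 61 is therefore no measure of how many contigs share reads.

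How a component's counts divide over its contigs was not used by the rule, and was compared between stages over all components with at least 2 tested contigs (edgeR's diffSpliceDGE, Benjamini-Hochberg adjusted p below 0.05). A change was called in 67 of the 109 members tested, or 61.5%, against 22.6% of all 10719 components tested and 74.9% (233 of 311) of the other components of 500 CPM or more. The 221 components within 2-fold had 182 calls among 219 tested (83.1%), and the 31 strongly higher ones 12 among 30 (40.0%). The number of contigs moved with these shares: the median number tested was 13 in members, 35 in components within 2-fold and 5 in the strongly higher ones, and its part in the calls was not tested. Contigs that share reads are not independent, as the test takes them to be, so these p-values cannot be taken at face value. The direction and size of that error were not tested.

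Many of the called changes were small. The most counted contig was chosen by its counts summed over all 6 libraries. It gained share in 52 of the 67 called members and lost it in 15. Members were higher on Day2, so Day2 counts weighed more in that choice and favoured contigs with a large Day2 share. The balance of gains and losses is therefore partly set by the choice and is not read as a result. The change in that contig's share was under 1 percentage point in 21, 5 points or more in 23 and 10 points or more in 13. With limma on the log ratio of the most counted contig to the rest, 49 of the 109 members were called, against 17.7% of the 10747 components tested, and 47 of the 49 were also among the 67.

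**Figure D5:**
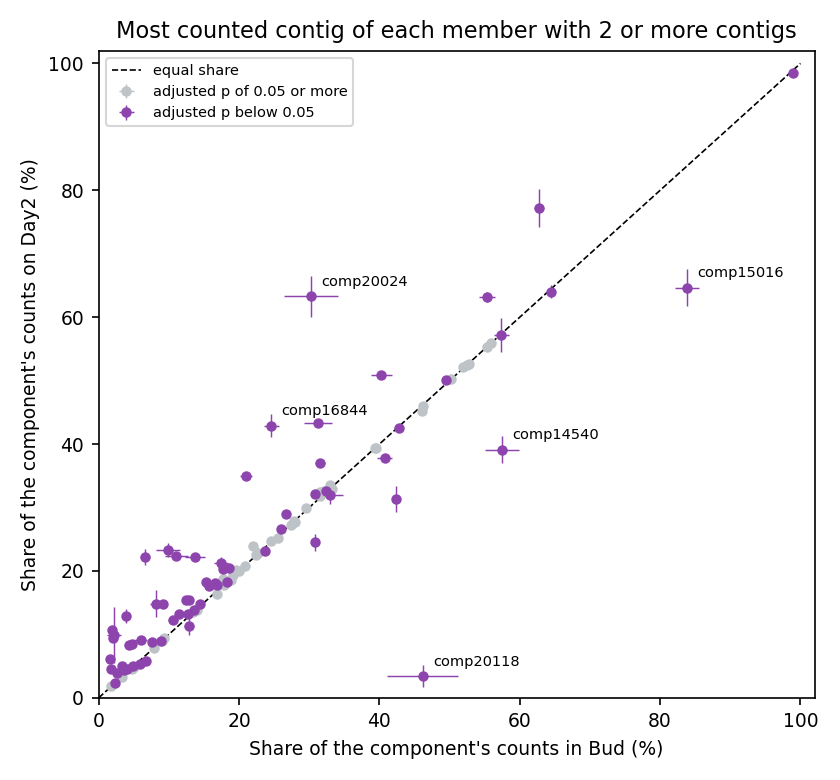
Share of a member's counts held by its most counted contig on Day2 against Bud (%, means of 3 libraries, bars are SDs) for the 109 members with 2 or more contigs. Purple points had an adjusted p below 0.05 in edgeR's diffSpliceDGE test, and comp20118, comp20024, comp15016, comp14540 and comp16844, which are named, lie farthest from the dashed line of equal share.

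The largest change was in comp20118. The adjusted p-values given for it and for the components below are from the diffSpliceDGE F test over all tested contigs of a component. They do not test the share of a single contig. Since that test pools contigs that may share reads, the size of these p-values is not read. Contig comp20118_c0_seq83, of 1025 bp, held 49.2%, 40.3% and 48.9% of the component's counts in the Bud libraries and 2.96%, 1.96% and 5.40% in the Day2 libraries, a change of −42.7 points (edgeR adjusted p = 2.97e-137). Its own level was 115 ± 18.3 CPM in Bud and 37.9 ± 14.8 CPM on Day2 (SD, n = 3), so the component was higher on Day2 although its leading Bud contig was 3.05 times lower. All its other contigs together had 134 ± 6.28 CPM in Bud and 1128 ± 376 CPM on Day2, a ratio of 8.43. One of them, comp20118_c0_seq36 of 1861 bp, had 25, 33 and 98 counts in Bud and 10127, 11946 and 4713 counts on Day2.

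In comp20024 the balance moved the other way. Contig comp20024_c6_seq38, of 2116 bp, held 29.5%, 26.8% and 34.5% of the counts in Bud and 66.1%, 64.1% and 59.7% on Day2, a change of 33.1 points (edgeR adjusted p = 2.07e-139). It was 6.02 times higher on Day2, at 846 ± 137 CPM, while the other 73 contigs together were 1.51 times higher, from 321 ± 5.19 to 485 ± 23.7 CPM. The membership of comp20024 therefore rests on 1 contig.

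Component comp15016 has 2 contigs. The shorter, comp15016_c0_seq1 of 1257 bp, held 83.1%, 82.7% and 85.8% of the counts in Bud and 62.0%, 64.3% and 67.8% on Day2 (change −19.2 points, edgeR adjusted p = 7.74e-05). Both were higher on Day2, the shorter 4.65 times and comp15016_c0_seq2, of 2461 bp, 13.3 times, from 62.1 ± 10.8 to 824 ± 186 CPM.

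In comp14540, contig comp14540_c0_seq3 of 1475 bp went from 57.4% ± 2.44 to 39.1% ± 2.16 of the counts (SD, n = 3; change −18.3 points, edgeR adjusted p = 1.19e-05). It was 1.38 times higher on Day2 against 2.92 times for the rest of the component. In comp16844, contig comp16844_c2_seq2 of 1017 bp went from 24.6% ± 1.08 to 42.9% ± 1.80 (SD, n = 3; change 18.3 points, edgeR adjusted p = 2.27e-35), and was 8.49 times higher against 3.67 times for the rest. These 5 were picked for their large changes, and since an exact two-sided permutation test of 3 against 3 has a smallest p of 0.1, none was run. Leaving out any library changed none of these directions, and all 5 were called under each of 12 alternatives. These repeats used the libraries from which the 5 were picked, so they are no independent evidence.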

How the data were processed

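Counts of 6 corolla libraries were used. According to the study's methods and the submitters' processing notes, the authors trimmed paired-end reads (FASTX in the methods, Trimmomatic 0.22 in the notes), built the contigs with Trinity, aligned the reads to them with TopHat and obtained counts with HTSeq. The deposited table holds these raw counts, by contig, beside each contig's length. The methods give a number of reads placed without ambiguity, but the deposited counts sum to more than it, and how reads that fit several contigs entered them is not stated in those sources. Counts were summed per Trinity component, and SDs are over 3 libraries. With 3 libraries a stage, the p-values for components measure only the spread between these libraries. Those for contig use also pool the contigs of a component, which are not replicates.

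Members and lists were chosen with earlier results of these data known. Components and contigs were tested in R 4.3.3 with edgeR 4.0.16: filterByExpr (minimum count 10, minimum total 15), TMM factors, glmQLFit with the stage as the only term, glmQLFTest for components and the gene-level F test of diffSpliceDGE for contig use, with Benjamini-Hochberg adjustment over everything tested. Both tests were run on simulated data first. The simulated counts were drawn independently for each component or contig, so these runs did not cover contigs that share reads. The alternatives were RLE or total-count scaling, no filter, DESeq2 1.42.0, the exact test with a common dispersion, limma-voom (limma 3.58.1), Simes-adjusted contig tests, contigs of at least 500 bp, limma on log2 ratios (offset 0.5, at least 60 counts in both parts), a replicate block, other limits of the rule, other sums of counts and each library left out. An adjusted p given as NA by DESeq2 (2 components) was kept as NA.

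Named components were the 20 members with the highest Day2 mean, 2 on each side of each limit of the rule, the 3 with the most contigs, the 5 called with the largest change in the share of their most counted contig, the 3 with the largest CV in each stage, the 3 highest per kilobase, and the components whose numbers the study names. Components comp10066, comp3148 and, in its contig counts, comp19636 were singled out after their values were seen.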

Additional observations from a re-analysis of the deposited data

How the results depend on the processing

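The number of members was 107 to 123 with a library left out, 113 with TMM factors (all 111 among them) and 80 with library totals, of which 69 were among the 111. It was 237 with a minimum of 250 CPM, 57 with 1000 CPM, and 127 with the most counted contig of each subcomponent, of which 71 were among the 111. The members' share of counts was 18.2% on Day2 and 4.83% in Bud with library totals, 25.2% and 9.47% at 250 CPM, 18.0% and 6.19% at 1000 CPM, and 20.4% and 6.92% with the most counted contigs, or 18.1% and 6.07% with the same 111 components, an alternative chosen after seeing the data. With a library left out the Day2 share was 20.9% to 22.2%.

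The members' part of all share gained was 41.6% with library totals, 49.0% at 250 CPM, 37.0% at 1000 CPM, 42.3% with sums per subcomponent, 37.8% with the most counted contigs, 33.7% with these and the same 111 components, and 40.2% to 44.7% with a library left out. The rise in the share of the 100 most counted components was 9.72 points with the most counted contigs, and 10.4 points for the 500 most counted. With the members left out it was 7.001 points at 250 CPM, 5.27 at 1000 CPM, 3.30 with the most counted contigs (3.10 with the same 111), 6.68 for the 50 and 3.80 for the 500 most counted, and 5.52 to 7.32 with a library left out. The highest of these was without Day2 replicate 2, where comp16616 passed 8-fold and was no longer left out with the members.

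Of the 109 members tested for contig use, 66 were called with a replicate block (22.0% of all components tested), and 49 to 68 over all 12 alternatives (17.5% to 23.1%). Libraries with the same replicate number did not deviate together (r = 0.026, 0.094 and −0.011), so the numbers were not taken as pairs. All 111 members were called higher on Day2 under each of 13 alternatives, which called 10.2% to 29.3% of all components tested. The rule used this contrast, so nothing is read from that count. Sums that count shared reads repeatedly limit every share given: the most counted contigs held 25.5% of the members' counts and 30.8% of all counts.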
